A study of Mus musculus with 12 samples.

Results

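The question examined was whether loss of NONO shifts hippocampal gene expression differently at the labels CT22 and CT10. It was read from 1 contrast, the knockout (KO) minus wild type (WT) change at CT22 less the same change at CT10, and all 12 of the series' 12 libraries enter it. The groups, taken from the sample titles, were WT CT10, KO CT10, WT CT22 and KO CT22, with 3 libraries each. All were polyadenylated RNA from the hippocampus of adult C57BL/6 mice. The WT groups carry no stated change, and the KO groups lack NONO. The labels name no further allele, promoter or treatment, and do not spell out CT, which usually stands for circadian time. Nothing in them ties a library to 1 animal, so p-values measure how far these libraries differ, and that spread may be technical. In bulk tissue, fewer cells of a type and less RNA per cell cannot be told apart.

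NONO belongs to the DBHS proteins, which bind RNA and DNA in the nucleus and include SFPQ and PSPC1. These proteins pair with one another in paraspeckles. NONO also binds PER proteins, the repressors of the circadian clock. In that clock, CLOCK or NPAS2 pairs with BMAL1 (encoded by Arntl) on E-box sequences and drives Per, Cry, Nr1d1 and Dbp, whose products feed back on it or carry the rhythm onward. In rodents, glucocorticoid hormone rises daily before the active phase, and it induces a set of genes in the hippocampus through the glucocorticoid receptor. A gene whose KO change depends on the time label would have a contrast away from 0.

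The smallest library, KO CT22 replicate 2, held 4435606 counts and the largest, WT CT22 replicate 3, held 10911046, and 0 pairs of libraries were identical. Nono (chromosome X, 101429651 to 101448593, plus strand) read 150 to 169 CPM (depth-scaled counts, with TMM factors) in the WT libraries. It read 0, 0.152 and 0.233 CPM in KO CT10 and 0.200, 0.672 and 0.483 CPM in KO CT22, so every KO library matched its genotype label. These KO values are at or near the floor of 3 counts, and no difference between the time labels is given for Nono.

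Among KO libraries, a pair stood against their time labels by clock genes. Dbp, a clock-driven transcription factor gene, read 80.6, 70.5 and 95.03 CPM in WT CT10 and 43.2, 50.5 and 59.6 CPM in WT CT22. In KO CT10 it read 93.7 and 106 CPM in replicates 1 and 2 but 33.6 CPM in replicate 3. In KO CT22 it read 90.9 CPM in replicate 1 but 32.3 and 32.9 CPM in replicates 2 and 3. The odd KO CT10 library thus lay with the CT22 libraries, and the odd KO CT22 library with those of CT10. Nr1d1, which encodes the repressor REV-ERB alpha, had the same arrangement, at 72.7 CPM in KO CT10 replicate 3 against 112 and 117 CPM in its group, and at 125 CPM in KO CT22 replicate 1 against 67.0 and 72.4 CPM. The labels were kept and no library was moved. Results are given with all libraries and, where stated, without KO CT10 replicate 3 and KO CT22 replicate 1. A contrast given without such a statement uses all libraries. The contrast for Dbp was 0.14 (SE 0.70) with all libraries and −0.94 without the pair, a description only, since Dbp was used to single them out.

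**Figure D1:**
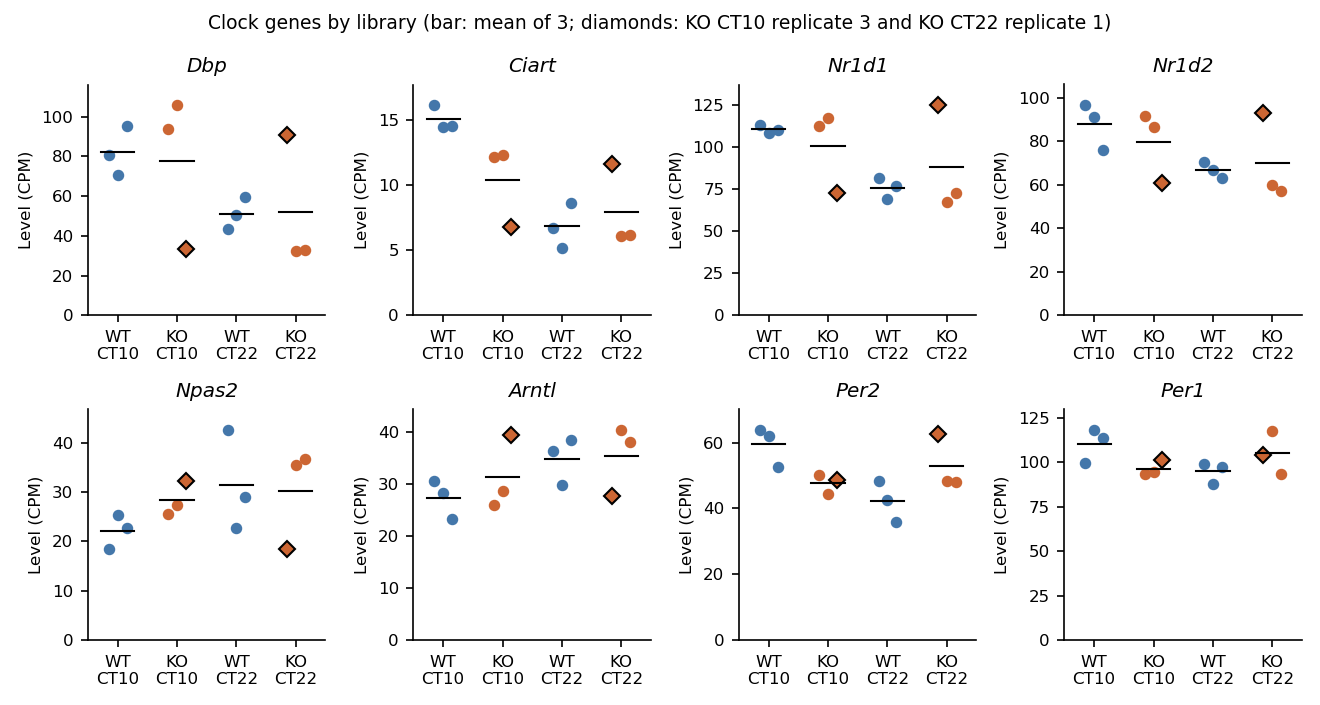
Levels of 8 clock genes in CPM (y axis, from 0) in each library, by group (x axis). Points are libraries, bars are means of 3, and diamonds mark KO CT10 replicate 3 and KO CT22 replicate 1, which lie with the other time label for Dbp, Nr1d1 and Nr1d2 (Dbp 33.6 and 90.9 CPM).

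No gene passed the threshold for a KO effect that differed between CT22 and CT10. In edgeR's quasi-likelihood test 0 of 14131 genes (0%) had a Benjamini-Hochberg adjusted p under 0.05, and the smallest adjusted p was 0.737. At an unadjusted p under 0.05 there were 861 genes (6.09%), of which 501 (3.55%) had a KO effect higher at CT22 and 360 (2.55%) one lower at CT22. DESeq2 called 0, with 735 (4.02%) at an unadjusted p under 0.05, and limma-voom called 0, with 933 (6.6%). Without the pair of KO libraries edgeR called 0, with 624 (4.39%) at an unadjusted p under 0.05. The median SE of the contrast was 0.20 on the log2 scale, and 9 in 10 genes had a contrast between −0.49 and 0.52. The count therefore does not show that the KO effect was alike at both labels.

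At the adjusted threshold the component effects were as sparse. At CT10, KO differed from WT in 1 gene (0.00708%), Nono. At CT22 it differed in 2 genes (0.0142%), Nono and Sfpq. At an unadjusted p under 0.05 in edgeR's test, 436 genes (3.09%) differed at CT10 and 1543 (10.9%) at CT22. The median absolute KO effect was 0.09 at CT10 and 0.14 at CT22 on the log2 scale. Across the 14131 genes the KO effects at the 2 labels had a Pearson r of 0.16, as a description over genes that are not independent. The CT22 against CT10 change called 0 genes (0%) in WT, with 955 (6.76%) at an unadjusted p under 0.05, and 0 (0%) in KO, with 447 (3.16%). The KO and WT libraries did not overlap, in either direction, for 1460 genes (10.3%) at CT10 and 1941 (13.7%) at CT22. Genes whose 3 KO libraries all lay below WT at CT10 and all above WT at CT22 numbered 39 (0.276%), and 24 (0.17%) had the reverse arrangement.

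**Figure D2:**
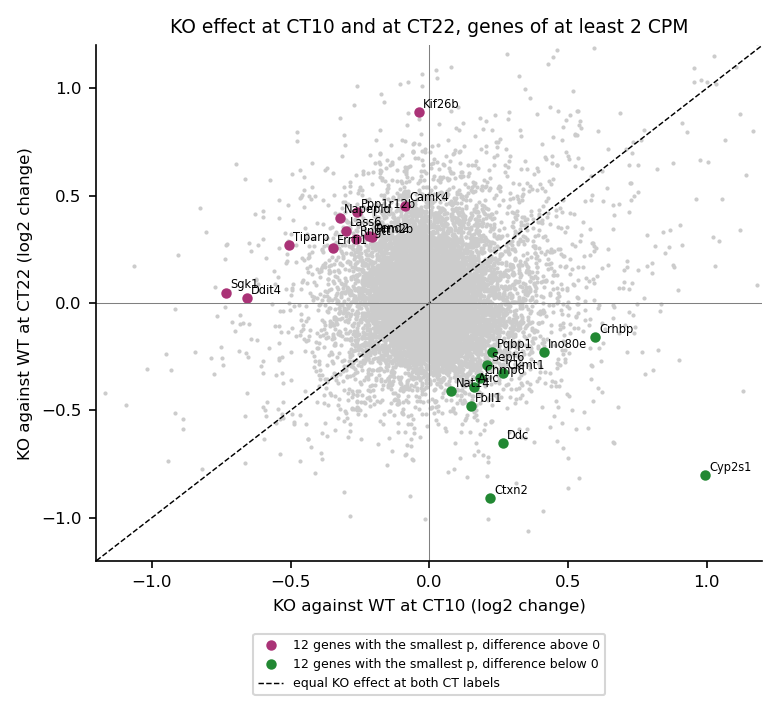
KO against WT log2 change at CT10 (x axis) and CT22 (y axis) for 13075 genes of at least 2 CPM, 49 of which lie outside the plotted range. Labelled points are the 12 genes of each direction with the smallest unadjusted p, chosen for their distance from the dashed line of equal effect, and none of them passed the adjusted threshold.

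The 24 genes named next as leading genes are the 12 of each direction with the smallest unadjusted p. They were chosen by this contrast, so their values are a description. Each had an edgeR adjusted p of 0.737. All 24 kept the sign of their contrast when any 1 library was left out, without the pair of KO libraries, and when libraries were adjusted for transcript length. Their selection by this contrast favours that outcome, so it adds no support.

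Of the leading genes with a higher contrast, Errfi1, Ddit4 and Sgk1 belong to the list of glucocorticoid-induced genes. A pair of promoters is shown because the Sgk1 window holds the textbook palindromic response element of the glucocorticoid receptor, and the Errfi1 window a cyclic AMP response element. The sequences are the 250 bases before a RefSeq gene start (build GRCm38.p6), 5′ to 3′ on the gene's strand, with the match in capitals (for Sgk1 the 2 arms of the palindrome).
Sgk1, chr10:21993640-21993889, plus strand: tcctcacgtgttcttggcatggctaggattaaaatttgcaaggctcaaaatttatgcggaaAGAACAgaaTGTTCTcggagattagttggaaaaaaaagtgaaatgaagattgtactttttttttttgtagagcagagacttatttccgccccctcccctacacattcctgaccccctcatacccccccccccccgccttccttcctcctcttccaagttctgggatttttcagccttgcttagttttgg
Errfi1, chr4:150854820-150855069, plus strand: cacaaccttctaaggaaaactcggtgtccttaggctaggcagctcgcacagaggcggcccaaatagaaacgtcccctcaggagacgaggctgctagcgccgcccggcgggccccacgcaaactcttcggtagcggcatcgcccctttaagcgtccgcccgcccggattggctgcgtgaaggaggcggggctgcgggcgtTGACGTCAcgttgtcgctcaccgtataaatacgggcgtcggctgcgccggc
Both strands were searched. The palindrome, AGAACA and TGTTCT with any 3 bases between, occurred in 3 of 32851 RefSeq windows (0.00913%), and in 1 of 33 windows of 21 matched glucocorticoid-induced genes. The window precedes a start that carried 2.66% of the Sgk1 counts. The match lies 951 bases before the start of the Sgk1 transcript that carried 70.8% of them. TGACGTCA occurred in 1.55% of all windows and in 1 of the 33, that of Errfi1. A match is a description of the letters and not a bound site.

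Sgk1 (chromosome 10, 21882184 to 21999902, plus strand), which encodes a serum- and glucocorticoid-regulated kinase, read 107, 119 and 98.9 CPM in WT CT10 against 76.4, 61.5 and 57.6 CPM in KO CT10. At CT22 it read 45.1, 66.7 and 64.9 CPM in WT and 64.4, 53.3 and 64.0 CPM in KO. All KO libraries lay below WT at CT10, while at CT22 the genotypes overlapped at about the KO CT10 level. The contrast was 0.78 (SE 0.21, unadjusted p = 0.00203), made of −0.73 at CT10 and 0.05 at CT22, and 0.65 without the pair of KO libraries.

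Ddit4 (chromosome 10, 59949675 to 59951770, minus strand), which encodes an inhibitor of mTOR signalling, read 68.6, 79.9 and 82.7 CPM in WT CT10 against 50.5, 49.7 and 46.4 CPM in KO CT10. Its CT22 levels were 47.2, 58.6 and 56.2 CPM in WT and 66.0, 52.7 and 45.4 CPM in KO. The arrangement was that of Sgk1, with separation at CT10 and overlap at CT22. The contrast was 0.68 (SE 0.18, unadjusted p = 0.00198) and 0.47 without the pair.

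Errfi1 (chromosome 4, 150855091 to 150868880, plus strand), a feedback inhibitor of the EGF receptor, differed from both in crossing over. It read 59.2, 60.6 and 63.5 CPM in WT CT10 against 43.4, 48.3 and 52.2 CPM in KO CT10, and 44.3, 50.9 and 43.9 CPM in WT CT22 against 51.9, 56.7 and 58.0 CPM in KO CT22. KO lay below every WT library at CT10 and above every WT library at CT22. The contrast was 0.61 (SE 0.14, unadjusted p = 0.000472) and 0.72 without the pair.

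Of the 23 glucocorticoid-induced genes tested, 0 passed the threshold. The contrast was above 0 in 16 and below in 7, with a median of 0.11 against −0.001 over all genes tested. The median KO effect was −0.22 at CT10 and −0.02 at CT22. Leaving out single libraries moved the list's median between 0.04 (without WT CT22 replicate 1) and 0.27 (without WT CT22 replicate 3), and it was 0.12 without the pair. The list was chosen with earlier results of these data known, so its median and share are a description only. Members at an unadjusted p under 0.05 numbered 6 (26.1%), all higher, where the share over all genes tested was 6.09%, and 3.55% for higher genes. Beside Errfi1, Ddit4 and Sgk1 these were Txnip, Klf9 and Nfkbia, named after their values were seen. Txnip, an inhibitor of thioredoxin, read 36.3, 40.9 and 48.3 CPM in WT CT10, 35.8, 29.4 and 27.3 in KO CT10, 26.0, 29.1 and 26.5 in WT CT22 and 33.0, 27.8 and 32.9 in KO CT22. Klf9, a transcription factor gene, had a contrast of 0.61, from −0.33 at CT10 to 0.28 at CT22. Nfkbia, the inhibitor of NF-kappaB, had 0.59.

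Not every gene of this kind behaved so. Tsc22d3, the gene of GILZ, a mediator of glucocorticoid action on inflammation, read 81.9, 105 and 107 CPM in WT CT10 against 60.9, 76.3 and 56.1 CPM in KO CT10, and 63.0, 72.8 and 70.6 CPM in WT CT22 against 58.4, 48.9 and 60.3 CPM in KO CT22. KO lay below WT without overlap at both labels, and the contrast was 0.32 (SE 0.18, unadjusted p = 0.106), or 0.19 without the pair. Fkbp5, a co-chaperone of the receptor, had a contrast of 0.02 (SE 0.19), with overlap at both labels, and −0.23 without the pair.

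**Figure D3:**
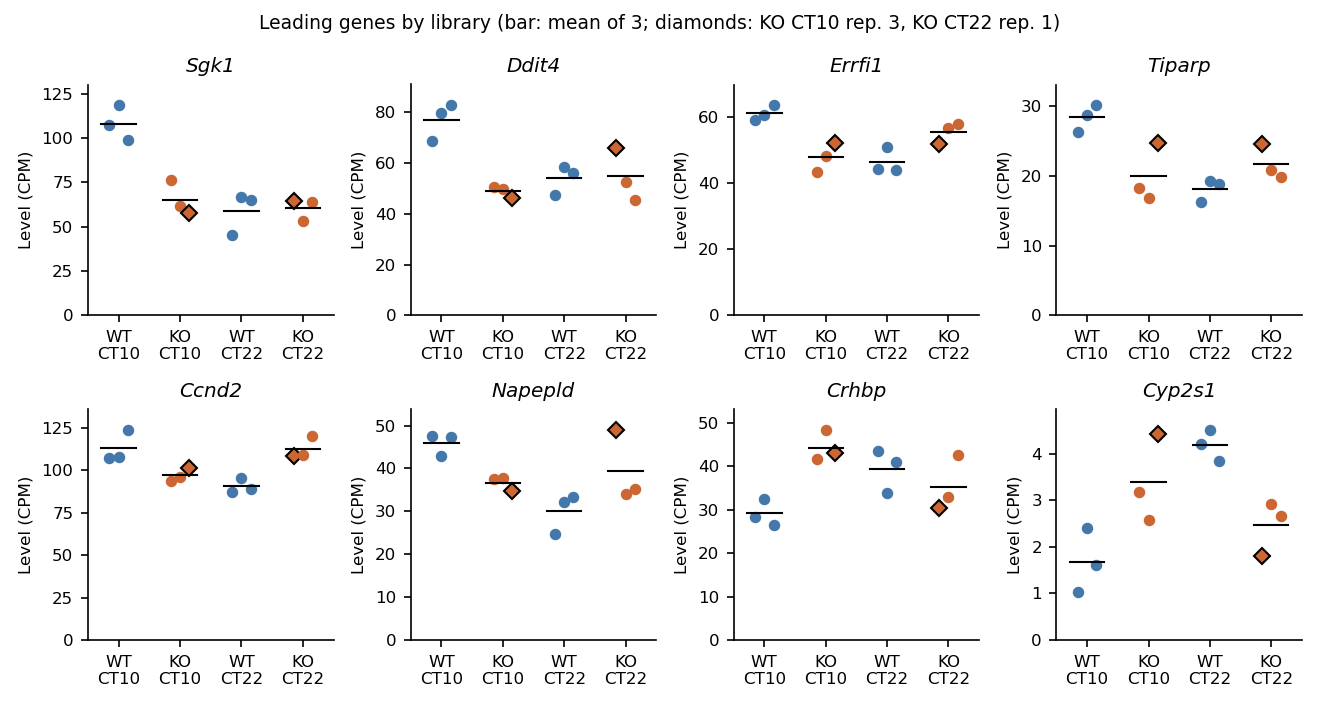
Levels in CPM (y axis, from 0) of 8 leading genes in each library, by group (x axis). Points are libraries, bars are means of 3, and diamonds mark KO CT10 replicate 3 and KO CT22 replicate 1. Sgk1 and Ddit4 separate the genotypes at CT10 and overlap at CT22, Errfi1, Ccnd2 and Tiparp cross over, and Cyp2s1 crosses the other way.

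Clock repressors were examined next, with promoters shown for the E-box through which the clock's activators act. The windows are as above, with each CACGTG in capitals.
Per1, chr11:69098699-69098948, plus strand: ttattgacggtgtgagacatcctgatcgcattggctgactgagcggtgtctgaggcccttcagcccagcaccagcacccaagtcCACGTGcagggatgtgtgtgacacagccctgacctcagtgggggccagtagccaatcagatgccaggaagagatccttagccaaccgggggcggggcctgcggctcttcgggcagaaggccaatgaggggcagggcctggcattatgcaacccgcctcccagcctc
Ciart, chr3:95882229-95882478, minus strand: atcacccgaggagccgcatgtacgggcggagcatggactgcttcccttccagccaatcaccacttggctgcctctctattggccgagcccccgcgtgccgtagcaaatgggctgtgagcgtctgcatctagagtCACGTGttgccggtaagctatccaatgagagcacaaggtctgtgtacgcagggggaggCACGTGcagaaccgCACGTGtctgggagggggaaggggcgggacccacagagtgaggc
Per1 holds 1 match and Ciart 3. CACGTG occurred in 6.02% of all windows and in 4 of 12 windows (33.3%) of the 8 clock repressor genes matched. It occurred in 0 of 12 windows of the activator and REV-ERB or ROR loop, and in 2 of 5 of the PAR bZIP group. Of the 33 windows of glucocorticoid-induced genes 3 held it (9.09%), among them the Sgk1 window above, where it is not in capitals.

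Per2 (chromosome 1, 91415982 to 91459328, minus strand), a core repressor, read 63.8, 61.9 and 52.7 CPM in WT CT10 against 50.1, 44.5 and 48.6 CPM in KO CT10. At CT22 it read 48.3, 42.5 and 35.9 CPM in WT and 62.6, 48.2 and 48.1 CPM in KO. WT was higher at CT10 than at CT22 in every library, while the KO libraries of the labels overlapped. The contrast was 0.65 (SE 0.18, unadjusted p = 0.00282, edgeR adjusted p = 0.737) and 0.52 without the pair of KO libraries.

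Per1 (chromosome 11, 69098956 to 69109957, plus strand) read 99.5, 118 and 114 CPM in WT CT10, 93.4, 94.8 and 101 in KO CT10, 99.2, 88.0 and 97.6 in WT CT22 and 104, 117 and 93.3 in KO CT22. Genotypes overlapped at both labels, and the contrast was 0.34 (SE 0.14, unadjusted p = 0.0267). Ciart, a repressor of CLOCK and BMAL1, read 16.1, 14.5 and 14.5 CPM in WT CT10 against 12.1, 12.3 and 6.76 CPM in KO CT10. In WT CT22 it read 6.70, 5.16 and 8.62 CPM, and in KO CT22 11.6, 6.05 and 6.16 CPM. Its contrast of 0.80 (SE 0.39) was 0.13 without the pair, so it rests on those libraries. The pair was singled out by clock genes, so the fall in this one is a description only.

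Of 12 clock repressors 0 passed, with 7 above and 5 below 0 and a median of 0.01. Cry1 had a contrast of −0.24 (SE 0.19), or −0.12 without the pair, and Per3 one of 0.15 (SE 0.24), which became −0.24 without it. Of 9 genes of the activator and REV-ERB or ROR loop 0 passed, with 5 above and 4 below 0. Arntl, which encodes BMAL1, had a contrast of −0.19 (SE 0.25) and Npas2 one of −0.44 (SE 0.39), and neither separated the genotypes at CT22. At CT10 Arntl overlapped, while every KO library lay above WT for Npas2. Without the pair the contrast of Arntl turned to 0.17 and that of Npas2 was −0.06. Nr1d1 had 0.37 and Nr1d2 0.22, and without the pair −0.18 and −0.22. The pair was singled out by clock genes, so the values of such genes without it are a description only. Of the 4 genes of the PAR bZIP output group, which holds Dbp and Tef, 0 passed. Tef had a contrast of 0.01 (SE 0.13), or −0.06 without the pair.

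The remaining leading genes with a higher contrast include regulators of growth and signalling. Ccnd2 (chromosome 6, 127125709 to 127151048, minus strand), which encodes cyclin D2, read 107, 108 and 124 CPM in WT CT10 against 93.8, 96.0 and 101 CPM in KO CT10. It read 86.9, 95.5 and 88.8 CPM in WT CT22 against 108, 109 and 120 CPM in KO CT22. The genotypes exchanged order without overlap. The contrast was 0.53 (SE 0.12, unadjusted p = 0.000426), the smallest p of all genes tested, and 0.39 with the length adjustment. Without the pair of KO libraries it was 0.59.

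Tiparp (chromosome 3, 65528447 to 65555518, plus strand), an ADP-ribosyltransferase that restrains the aryl hydrocarbon receptor, read 26.3, 28.7 and 30.1 CPM in WT CT10 against 18.3, 16.8 and 24.7 CPM in KO CT10. At CT22 WT read 16.3, 19.3 and 18.8 CPM, and KO 24.7, 20.8 and 19.8 CPM. It too exchanged order, with a contrast of 0.78 (SE 0.21), or 0.85 without the pair. Napepld (chromosome 5, 21662903 to 21701345, minus strand), an enzyme that makes N-acylethanolamines such as anandamide, read 47.7, 42.8 and 47.3 CPM in WT CT10 against 37.6, 37.9 and 34.6 CPM in KO CT10. In WT CT22 it read 24.8, 32.3 and 33.4 CPM, and in KO CT22 48.9, 34.1 and 35.2 CPM. The contrast was 0.72 (SE 0.20), and 0.48 without the pair.

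Camk4 (chromosome 18, 32939041 to 33195767, plus strand), a calcium-activated kinase of the neuronal nucleus, differed in where its contrast arose. It overlapped at CT10 (146, 139 and 135 CPM in WT, 149, 118 and 128 CPM in KO) and separated at CT22 (115, 113 and 96.7 CPM in WT, 158, 135 and 150 CPM in KO). The contrast of 0.54 became 0.21 (unadjusted p = 0.0927) with the length adjustment, a change of more than 1.5 times, and its transcript of 12331 bases was the longest of the 24 leading genes. Kif26b, a kinesin family gene, had a contrast of 0.93 that also came from CT22, where KO read 33.0, 25.1 and 19.0 CPM against 12.9, 16.4 and 12.6 CPM in WT. Rrm2b, a subunit of ribonucleotide reductase, Lass6, a ceramide synthase, Ppp1r12b, a myosin phosphatase subunit, and Rngtt, the mRNA capping enzyme, had contrasts of 0.52, 0.64, 0.69 and 0.56, each with KO below WT at CT10 and above it at CT22 without overlap. In all, 8 of the 12 leading genes with a higher contrast exchanged order in that way, which their selection favours.

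Among leading genes with a lower contrast, Crhbp (chromosome 13, 95431376 to 95444831, minus strand) encodes the protein that binds and buffers corticotropin-releasing hormone and is made by interneurons. It read 28.4, 32.5 and 26.6 CPM in WT CT10 against 41.6, 48.3 and 43.0 CPM in KO CT10. At CT22 WT read 43.4, 33.8 and 41.1 CPM and KO 30.4, 32.9 and 42.5 CPM. KO lay above WT at CT10, and the genotypes overlapped at CT22. The contrast was −0.76 (SE 0.19, unadjusted p = 0.00134) and −0.67 without the pair.

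Cyp2s1 (chromosome 7, 25802476 to 25816530, minus strand), a cytochrome P450 gene, had the contrast of greatest size among the leading genes, at a low level. It read 1.02, 2.40 and 1.62 CPM in WT CT10 against 3.17, 2.58 and 4.43 CPM in KO CT10, and 4.20, 4.502 and 3.85 CPM in WT CT22 against 1.80, 2.91 and 2.66 CPM in KO CT22. The genotypes exchanged order without overlap, and the contrast was −1.80 (SE 0.45), or −1.35 without the pair. Ddc (chromosome 11, 11814101 to 11898144, minus strand), the decarboxylase that makes dopamine and serotonin, also exchanged order. It read 5.62, 6.77 and 6.76 CPM in WT CT10, 7.59, 8.03 and 7.46 in KO CT10, 7.90, 8.45 and 10.6 in WT CT22 and 5.41, 6.72 and 5.32 in KO CT22, for a contrast of −0.92 (SE 0.25).

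Ctxn2 (cortexin 2) and Ckmt1, the mitochondrial creatine kinase, overlapped at CT10 and separated at CT22. Ckmt1 read 170, 181 and 180 CPM in WT CT10, 180, 234 and 225 in KO CT10, 235, 212 and 250 in WT CT22 and 160, 203 and 195 in KO CT22. Its contrast was −0.59 (SE 0.16), or −0.46 without the pair. Ctxn2 had a contrast of −1.13 (SE 0.30), with 9.004, 8.45 and 7.43 CPM in WT CT22 and 4.31, 3.81 and 4.95 CPM in KO CT22. Nat14, Atic, Fbll1 and Sept6 likewise overlapped at CT10 and lay below WT at CT22, with contrasts of −0.49, −0.55, −0.63 and −0.50. Atic catalyses the last steps of purine synthesis and Sept6 encodes a septin. Chmp6, an ESCRT-III subunit, and Pqbp1, a splicing-associated protein, exchanged order, with contrasts of −0.53 and −0.46 (Pqbp1 −0.30 with the length adjustment), and Ino80e, a subunit of the INO80 remodeller, separated at CT10 with −0.64. Of the 12, 4 exchanged order.

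Both DBHS partners of NONO read higher in every KO library than in the WT libraries of the same label, and for Sfpq this passed the threshold at CT22. Sfpq (chromosome 4, 127021301 to 127037014, plus strand) read 157, 152 and 146 CPM in WT CT10 against 167, 164 and 187 CPM in KO CT10. In WT CT22 it read 150, 138 and 139 CPM, and in KO CT22 201, 208 and 209 CPM. All KO libraries lay above WT at both labels, by 0.19 at CT10 and 0.53 at CT22 (edgeR adjusted p = 0.0349 at CT22). The contrast was 0.35 (SE 0.11, unadjusted p = 0.00627, edgeR adjusted p = 0.737), so a difference in size between the labels did not pass the threshold.

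Pspc1, the other paralog, read 47.9, 46.0 and 44.8 CPM in WT CT10 against 56.6, 68.5 and 59.1 CPM in KO CT10. At CT22 WT read 39.1, 47.0 and 48.1 CPM and KO 60.5, 54.7 and 58.0 CPM. Its KO effects of 0.41 and 0.37 gave a contrast of −0.03 (SE 0.15). Neat1, the RNA scaffold of paraspeckles, had a contrast of −0.26 (SE 0.28). Of 23 paraspeckle genes and partners 0 passed, with 16 above and 7 below 0 and a median of 0.09, or 0.03 without the pair of KO libraries. Among 18 SR splicing factors and their kinases 14 lay above 0 and 0 passed, with a median of 0.08. Srsf1, a splicing factor gene, had a contrast of 0.31 (SE 0.12), or 0.20 with the length adjustment, and Clk1, a kinase that phosphorylates SR proteins, one of 0.33 (SE 0.15). Without the pair Srsf1 had 0.22 and Clk1 0.325.

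Synaptic receptor genes gave 0 calls. Among 12 GABA-A receptor subunits 7 lay above 0, with a median of 0.05. Gabra2, a subunit of synaptic GABA-A receptors, read 48.0, 48.4 and 46.6 CPM in WT CT10, 33.9, 39.2 and 40.9 in KO CT10, 54.5, 47.6 and 52.3 in WT CT22 and 35.6, 43.9 and 40.7 in KO CT22. KO lay below WT without overlap at both labels, with effects of −0.33 and −0.37, and the contrast was −0.04 (SE 0.15). Gphn, which encodes the scaffold gephyrin, had 0.17 (SE 0.14), or 0.01 without the pair. Of 15 ionotropic glutamate receptor genes 8 lay above 0. Gria2, the AMPA receptor subunit that limits calcium entry, and the kainate receptor genes Grik2 and Grik4 had contrasts of 0.37, 0.34 and 0.48 at unadjusted p from 0.0302 to 0.0417. With the length adjustment these were 0.20, 0.24 and 0.45, at unadjusted p from 0.0732 to 0.136. Without the pair they were 0.27, 0.30 and 0.30, at unadjusted p from 0.0877 to 0.194, and with both changes Gria2 had 0.08. In cholesterol synthesis (24 genes, 13 above 0, 0 called) Sc5d, a sterol desaturase, had a contrast of 0.29, or 0.25 without the pair.

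Activity-induced and stress genes varied between libraries of a group. Fos read 14.1, 20.2 and 22.3 CPM in WT CT10, 6.12, 17.7 and 29.95 in KO CT10, 24.9, 18.8 and 17.7 in WT CT22 and 16.6, 27.3 and 24.8 in KO CT22. The spread within KO CT10 exceeded any group difference, and the contrast was 0.21 (SE 0.64). Arc had −0.07 (SE 0.52), Egr1 0.09, Nr4a1 −0.01 and Npas4 −0.58. Without the pair Fos had 1.04, Arc 0.53, Egr1 0.54 and Nr4a1 0.63. The 17 activity-induced transcription factors had a median of 0.09, and 0.52 without the pair, with 0 called. Among 17 endoplasmic reticulum chaperones 13 lay below 0 (median −0.16, or −0.002 without the pair). Pdia3, a disulfide isomerase of that list, had −0.30 (SE 0.14), or −0.21 without the pair. Of 21 cytosolic heat shock chaperones 15 lay below 0, with a median of −0.07, Hspa8 at −0.26 and Hsp90aa1 at −0.16. Without the pair 11 of the 21 lay above 0 with a median of 0.03, and both genes had −0.05. Cold-inducible Cirbp and Rbm3 had 0.06 and 0.28, both negative without the pair.

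The contrast followed transcript length. Genes were divided into 5 equal groups by the length of the transcript with most counts. From the shortest group (147 to 1664 bases) to the longest (4714 to 101674 bases) the median contrast was −0.16, −0.07, −0.01, 0.06 and 0.17. It was above 0 in 25.8% of the shortest genes and 78.5% of the longest, and genes at an unadjusted p under 0.05 were 22 higher and 167 lower in the shortest group, against 261 higher and 8 lower in the longest. The KO effect at CT22 ran from −0.13 to 0.16, while that at CT10 ran from 0.03 to −0.01. Without the pair of KO libraries the ends were −0.16 and 0.16.

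The length pattern varied by library. The longest group less the shortest, in median log2 CPM centred on the 12 libraries, was 0.05, 0.03 and −0.07 in WT CT10, 0.13, −0.30 and 0.06 in KO CT10, 0.09, −0.09 and −0.36 in WT CT22, and 0.23, 0.06 and 0.17 in KO CT22. The 3 KO CT22 libraries were all positive, but the widest values belonged to WT CT22 replicate 3 and KO CT10 replicate 2, and libraries of a group disagreed in sign in the other 3 groups. Leaving out KO CT10 replicate 2 moved the shortest group to −0.09 and the longest to 0.10, and without WT CT22 replicate 1 they were −0.22 and 0.22. By GC content of the transcript the 5 groups ran from 0.11 at the lowest to −0.08 at the highest.

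**Figure D4:**
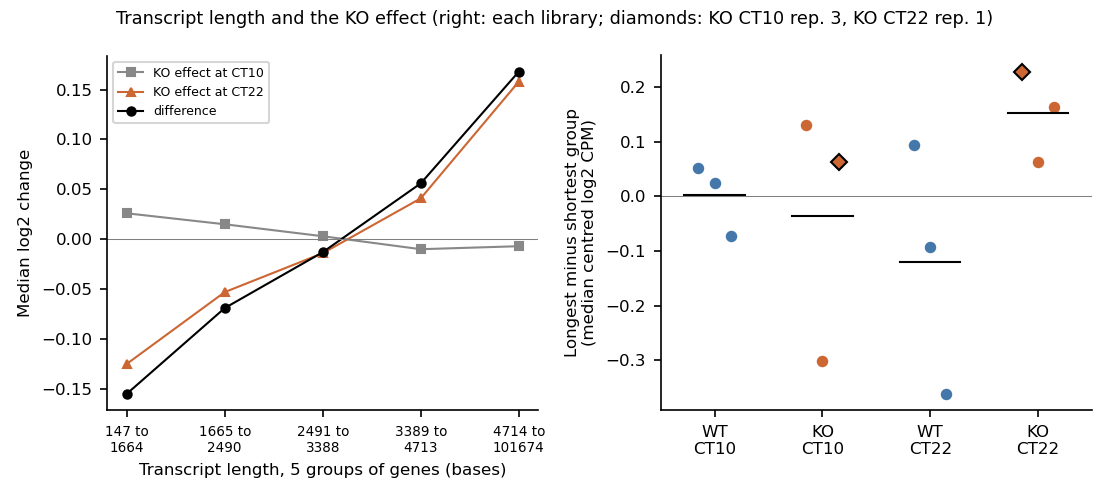
Left: median log2 change (y axis) of the KO effect at CT10, at CT22 and of their difference in 5 groups of genes by transcript length in bases (x axis), where the difference runs from −0.16 to 0.17. Right: longest minus shortest group in each library by group, with bars for means of 3 and diamonds for KO CT10 replicate 3 and KO CT22 replicate 1; libraries range from −0.36 (WT CT22 replicate 3) to 0.23 (KO CT22 replicate 1).

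The large complexes of short transcripts lay with that pattern. Of 83 cytosolic ribosomal protein genes 81 had a contrast below 0 (median −0.21, 0 called), and the median was −0.03 with libraries adjusted for transcript length, or −0.10 with that adjustment and without the pair. Mitochondrial ribosomal proteins (66 of 76 below 0, median −0.16) and oxidative phosphorylation subunits (71 of 74, median −0.20) moved to −0.04 each with that adjustment. The adjustment takes out each library's trend on length, so a move of short transcripts towards 0 is built in. After it 57 of 83 cytosolic ribosomal, 46 of 76 mitochondrial ribosomal and 51 of 74 oxidative phosphorylation genes still lay below 0. Leaving out KO CT10 replicate 2 alone gave medians of −0.10, −0.05 and −0.10 for these 3 lists. Genes of the shortest group outside these lists lay below 0 in 72.7% of 2626 (median −0.15). Examples from the 3 lists are Rpl36a, of the large ribosomal subunit, at −0.38 (SE 0.14), Ndufa12, of respiratory complex I, at −0.42 (SE 0.15), and Mrpl10 at −0.30 (SE 0.13). With the length adjustment they had −0.18, −0.23 and −0.20, at unadjusted p from 0.0644 to 0.180. The X-linked Rps4x and its near-identical copy Rps4y2 share reads, so their values are uncertain.

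Markers of cell types and neighbouring tissue varied with single libraries. All 13 dentate granule cell markers had a contrast above 0 (median 0.54, 0 called), and none was listed at 0. Prox1, the transcription factor that defines these neurons, read 83.6, 86.3 and 69.3 CPM in WT CT10, 93.8, 65.9 and 74.5 in KO CT10, 45.3, 73.8 and 48.8 in WT CT22 and 148, 81.4 and 57.6 in KO CT22. KO CT22 replicate 1 stood highest. The summed level of the list was 920 to 1041 CPM in WT CT10, 832 to 995 CPM in KO CT10, 636 to 949 CPM in WT CT22 and 683 to 1532 CPM in KO CT22. Without KO CT22 replicate 1 the median was 0.05, and without KO CT22 replicate 3 it was 0.79.

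Oligodendrocyte markers gave the opposite sign in all 18 members (median −0.38, 0 called). Mbp, a main protein of myelin, read 3361, 2940 and 1893 CPM in WT CT10, 2922, 3139 and 2338 in KO CT10, 2654, 3715 and 3089 in WT CT22 and 1526, 3251 and 2729 in KO CT22. The lowest libraries were KO CT22 replicate 1 and WT CT10 replicate 3. The list's sum was 4638 to 8550 CPM in WT CT10, 6099 to 8195 CPM in KO CT10, 6540 to 8187 CPM in WT CT22 and 3981 to 7236 CPM in KO CT22, and the median was −0.15 without KO CT22 replicate 1. Without KO CT22 replicate 3 the median was −0.59, and without the pair it was −0.27 with 0 of 18 above 0. The part of cell composition in the contrasts of other genes was not tested.

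Choroid plexus markers (16 genes, 0 called, median 0.07) spread most. Their sum was 345 to 2124 CPM in WT CT10, 379 to 4953 CPM in KO CT10, 415 to 2210 CPM in WT CT22 and 251 to 5409 CPM in KO CT22, with Ttr, transthyretin, at up to 3454 CPM. The median turned to −2.06 without KO CT22 replicate 3 and to 2.19 without KO CT10 replicate 1. Interferon-stimulated genes (17 of 20 below 0, median −0.29, 0 called) had their highest sum, 192 CPM, in KO CT10 replicate 1 against 96.9 to 125 CPM in the others, and the median was 0.10 without it. That median was −0.47 without KO CT10 replicate 3 and −0.52 without the pair. Meningeal markers had a median of 0.34, which was −0.004 without KO CT10 replicate 2 and 0.65 without WT CT22 replicate 1. Without the pair it was 0.54, with 15 of 17 above 0. Striatum markers had 0.33, which turned to −0.09 without KO CT22 replicate 3. Their median was 0.60 without KO CT22 replicate 1 and 0.75 without the pair. Endothelial markers lay below 0 in 14 of 17 (median −0.17). Their median was −0.07 without WT CT22 replicate 1, −0.26 without KO CT22 replicate 3 and −0.17 without the pair. Cldn5, the tight-junction protein of brain vessels, had −0.85 (SE 0.29), and −0.40 without the pair. Interneuron markers lay below 0 in 13 of 18 (median −0.15), with Vip, a neuropeptide gene, at −0.92 (SE 0.41). Without the pair 8 of the 18 lay above 0 with a median of −0.03, and Vip had −0.385 (unadjusted p = 0.182). Without KO CT22 replicate 1 alone the list's median was −0.05, and without KO CT22 replicate 3 it was −0.27. Astrocyte, microglia and pyramidal cell markers had medians of −0.02, −0.08 and −0.05. Without the pair these were −0.03, −0.20 and −0.15, and 2 of 18 microglia markers lay above 0. The pyramidal median turned to 0.10 without KO CT22 replicate 3, and the astrocyte median to 0.02 without WT CT22 replicate 2. The microglia median was −0.17 without WT CT10 replicate 1. Beta-globin genes share near-identical sequence, and single members of the blood list are uncertain.

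**Figure D5:**
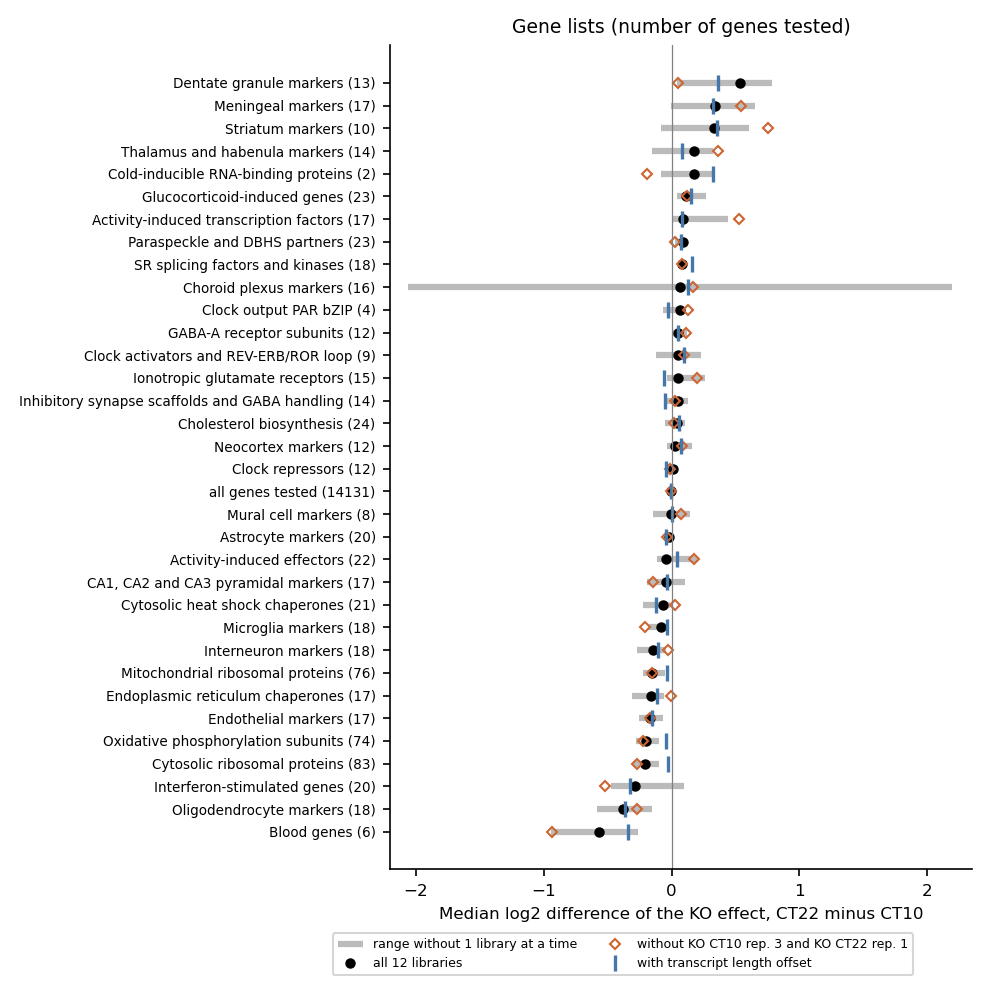
Median log2 contrast (x axis) of each gene list (y axis, number of genes tested in brackets). Black points use all 12 libraries, and grey bars span the medians without 1 library at a time. Diamonds leave out KO CT10 replicate 3 and KO CT22 replicate 1, and ticks use the length adjustment. The ribosomal and oxidative phosphorylation lists move towards 0 with that adjustment, which is built in for short transcripts. The choroid plexus list spans −2.06 to 2.19.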

How the data were processed

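Polyadenylated RNA of 12 hippocampus libraries was read as estimated counts per transcript, which the authors made and deposited. The submitters' processing notes name build mm10 and the tools TopHat 1.3.3, RSEM 1.2.5, edgeR 3.0.6 and FastQC. The authors' deposited table of KO against WT was not used here. Strand use in counting is not given in the sources, so overlapping, antisense and near-identical genes are uncertain.

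Estimated counts were summed by gene symbol (23329 genes) and rounded. In R 4.3.3, edgeR 4.0.16 filtered low counts (filterByExpr, minimum count 10, 14131 genes kept), scaled by TMM and fitted a robust quasi-likelihood model of 4 group means with 8 residual degrees of freedom. P-values were adjusted by Benjamini-Hochberg across these genes and called at 0.05. SE was the log2 value over the root of F. Alternatives used DESeq2 1.42.0, limma 3.58.1, other scalings and filters, a replicate block and fits without each library. The length and GC adjustments, which take a smooth trend of each library on that property as an offset, and the fits without a pair of KO libraries, were chosen after seeing the data. The procedure was tested on simulated data that held no length trend or tissue differences between libraries, so that run does not speak to these. A floor of 3 counts covers counting error only, as do the totals of 4435606 to 10911046 counts per library.

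Named genes were Nono, the 12 smallest unadjusted p per direction among characterised genes of at least 2 CPM, up to 3 members per direction of each of 33 lists at an unadjusted p under 0.05, and chosen clock, hormone, activity and partner genes. Some genes that the rule names are not reported here. Members and lists were chosen with earlier results of these data known. The files use older symbols for 6 listed genes (Ciart is Gm129). Promoters are from RefSeq, GRCm38.p6.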

Additional observations from a re-analysis of the deposited data

How the results depend on the processing

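The count of 0 called genes held under every alternative run. Genes at an unadjusted p under 0.05 numbered 861 with all libraries and ranged from 459 (without WT CT22 replicate 3) to 1466 (without WT CT22 replicate 1) when 1 library was left out. They numbered 480 without KO CT10 replicate 2 and 1333 without KO CT10 replicate 1. The smallest adjusted p in those 12 edgeR fits lay between 0.344 and 0.976. Both scalings, the filters, the fit without robust weights, the choroid plexus covariate and unrounded counts gave 763 to 989. The ends came from the filters, which change the number tested. They were 763 of 11699 (6.52%) at a mean of at least 5 CPM and 989 of 18294 (5.41%) with no filter, against 6.09% in the main fit. The length offset gave 674 (4.77%), the GC offset 817 (5.78%) and the length offset without the pair of KO libraries 558 (3.92%). DESeq2 without the pair gave 394 of 18192 (2.17%), with a smallest adjusted p of 0.0623. The labels do not say whether replicate numbers pair the libraries. Same-numbered libraries correlated between −0.237 and 0.328, and 4 of 12 libraries correlated best with their own number. These values do not decide whether the numbers link libraries. A fit with the replicate block called 0 genes, with 892 at an unadjusted p under 0.05. Of the 84 named genes, 13 turned sign without the pair of KO libraries, 11 without KO CT22 replicate 1, 7 without KO CT10 replicate 3, 6 with the length offset and 16 with that offset and without the pair. The cause was not tested. Depth limits low genes most in KO CT22 replicate 2, where 3 counts equal 0.672 CPM.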
